A study of Mus musculus with 8 samples.

Results

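Sclerostin (gene Sost), its paralogue Sostdc1 and the receptors Lrp4, Lrp5 and Lrp6 were examined in long bones of Hyp mice, with wild-type (WT) mice as the comparison. The members were all probe sets of the array that the platform annotation assigns to exactly 1 of these 5 gene symbols. They came to 8 of 45037 probe sets, with 2 each for Sost, Sostdc1 and Lrp6 and 1 each for Lrp4 and Lrp5. In Hyp mice, kept on C57BL/6, the 3′ part of the Phex gene is missing, and the mice model X-linked hypophosphatemia, in which phosphate is lost through the kidney and bone mineralizes poorly. For the WT mice the labels give the genotype and name no background strain. Both groups were male and 12 days old, and the colony ate a standard diet with 0.6% calcium, 0.54% phosphate and vitamin D at 2200 IU. Total RNA came from tibia and femur, 2 bone samples of 1 genotype went into each RNA, and 4 RNAs per genotype were hybridised to 1 array each. The labels do not say how many animals these came from, so p-values measure the spread between the RNA samples.

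Sclerostin is a small secreted protein with a cystine-knot fold, made in bone mainly by osteocytes. It binds the first propellers of LRP5 and LRP6, the co-receptors that pair with Frizzled proteins to pass on Wnt signals, and so it limits bone formation. LRP4, better known as the agrin receptor of the neuromuscular junction, also binds sclerostin and helps it act on bone. Sostdc1, also called Wise, ectodin or USAG-1, is expressed in kidney, tooth and hair follicle among other places. It binds both BMPs and the LRP receptors.

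The promoter of Sost, the member with the largest change, is shown with the 250 bases before its transcription start, from RefSeq on GRCm38.p6, at chr11:101967016-101967265 on the minus strand, read 5′ to 3′. Capitals mark an E-box (CANNTG) and an AT-rich stretch (TTTAAA).
Sost promoter: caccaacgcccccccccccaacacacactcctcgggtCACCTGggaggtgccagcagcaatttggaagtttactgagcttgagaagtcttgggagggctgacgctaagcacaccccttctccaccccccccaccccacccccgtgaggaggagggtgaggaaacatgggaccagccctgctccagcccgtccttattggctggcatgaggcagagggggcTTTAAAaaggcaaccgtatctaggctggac
The E-box began at position -213 and the AT-rich stretch at -30, counted from the start. On either strand, 66.2% of 32817 RefSeq promoter windows of the same length held an E-box and 12.1% held TTTAAA. The core letters bound by Sp and KLF factors, CACCC, occurred at 5 places between -140 and -98, of which 4 are on the printed strand and the one at -98 on the other, and 52.0% of the windows held it. The RUNX core TGTGGT was not among the letters of this window, while 14.0% of the windows held it. The same was true of the TCF/LEF core CTTTGA, held by 13.8%, and of the MEF2 motif, held by 2.92%. Such matches describe the sequence and were not tested for binding.

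The deposited values are on a log2 scale and had been shifted so that each probe set has a median of 0 across the arrays. They therefore show how the arrays differ at a probe set, not how strongly a gene is expressed, and neither levels of 2 genes nor the presence of bone markers can be read from them. Phex, the deleted gene, lay between -3.65 and -2.99 in Hyp bones on the mean of its 2 probe sets, against 2.95 to 3.48 in WT bones, so every array matched its genotype label. The sources used here do not place these probe sets inside or outside the missing segment. Fgf23, the phosphate-lowering hormone of bone, lay between 2.39 and 3.16 in Hyp bones, against -3.09 to -2.39 in WT bones. WT replicate 3 stood apart on the second principal component (22.6% of the variance), at -38.4 with the other arrays between -10.3 and 17.5. In that array 24 skeletal muscle markers averaged 1.76, against -1.03 to 0.14 in Hyp bones and -0.48 to 0.24 in the other WT bones.

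Both secreted antagonists changed in Hyp bone, and they changed in opposite directions. Sost fell to 27.7% of its WT value on the mean of its probe sets (95% confidence interval 22.3% to 34.4%). Sostdc1 was 2.24-fold higher (95% confidence interval 192% to 261% of WT). No probe set of the 3 receptors passed the test in limma, and none had an unadjusted p under 0.05 (smallest 0.0734, Lrp4). Of the 8 probe sets 4 passed (limma, adjusted p under 0.05 over all probe sets), where 7.13% of all probe sets did. Of them 2 rose and 2 fell, beside 3.22% higher and 3.91% lower among all. The groups did not overlap at the same 4 probe sets, as at 15.5% of all probe sets. On gene means 2 of the 5 genes passed, with groups that did not overlap, where 12.9% of 18193 genes passed and 19.2% did not overlap.

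At the Sost probe set 1421245_at the centred log2 values were -0.87, -0.85, -0.87 and -0.73 in Hyp replicates 1 to 4, against 1.62, 1.19, 0.73 and 0.83 in WT replicates 1 to 4. The Hyp bones lay within a narrow band and the WT bones were spread out, with no overlap. The mean was -0.83 ± 0.07 in Hyp bones and 1.09 ± 0.40 in WT bones (SD, n = 4 each), so that Sost fell by 1.92 ± 0.16 (SE; limma adjusted p = 0.000152). At the other Sost probe set, 1450179_at, the values were -0.97, -0.60, -0.50 and -1.04 in Hyp bones, against 1.35, 0.88, 1.28 and 0.50 in WT bones. The groups were again fully apart, and WT replicate 3, among the lower WT bones at the first probe set, was among the higher ones here. The difference was -1.78 ± 0.19 (SE; limma adjusted p = 0.000397). By size of difference the Sost probe sets ranked 8 and 11 among the 45037, behind Phex and Fgf23 among others.

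At the Sostdc1 probe set 1449340_at the values were 1.30, 0.71, 0.69 and 0.75 in Hyp bones, against -1.0, -0.69, -0.84 and -0.86 in WT bones. Hyp replicate 1 was the highest and the other 3 Hyp bones lay close together. Sostdc1 rose there by 1.71 ± 0.13 (SE; limma adjusted p = 9.6e-05), at rank 13 of all probe sets by size. At the probe set 1460250_at the values were 0.48, 0.62, 0.20 and 0.08 in Hyp bones, against -0.38, -0.38, -0.25 and -0.08 in WT bones. The order of the genotypes was the same, but Hyp replicate 4 and WT replicate 4 lay closest to each other. The rise was 0.62 ± 0.12 (SE; limma adjusted p = 0.0124). The platform annotation lists both probe sets under 1 transcript record, yet their responses differed by 1.09 ± 0.19 within an array (SE, n = 4 per group; two-sided exact permutation p = 0.0286, the smallest that 4 against 4 arrays can give). The comparison of the probe sets was added after their values were seen. The size of the Sostdc1 increase therefore depends on the probe set, while its direction does not. The Sost probe sets are also listed under 1 record, and theirs lay close to each other.

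**Figure D1:**
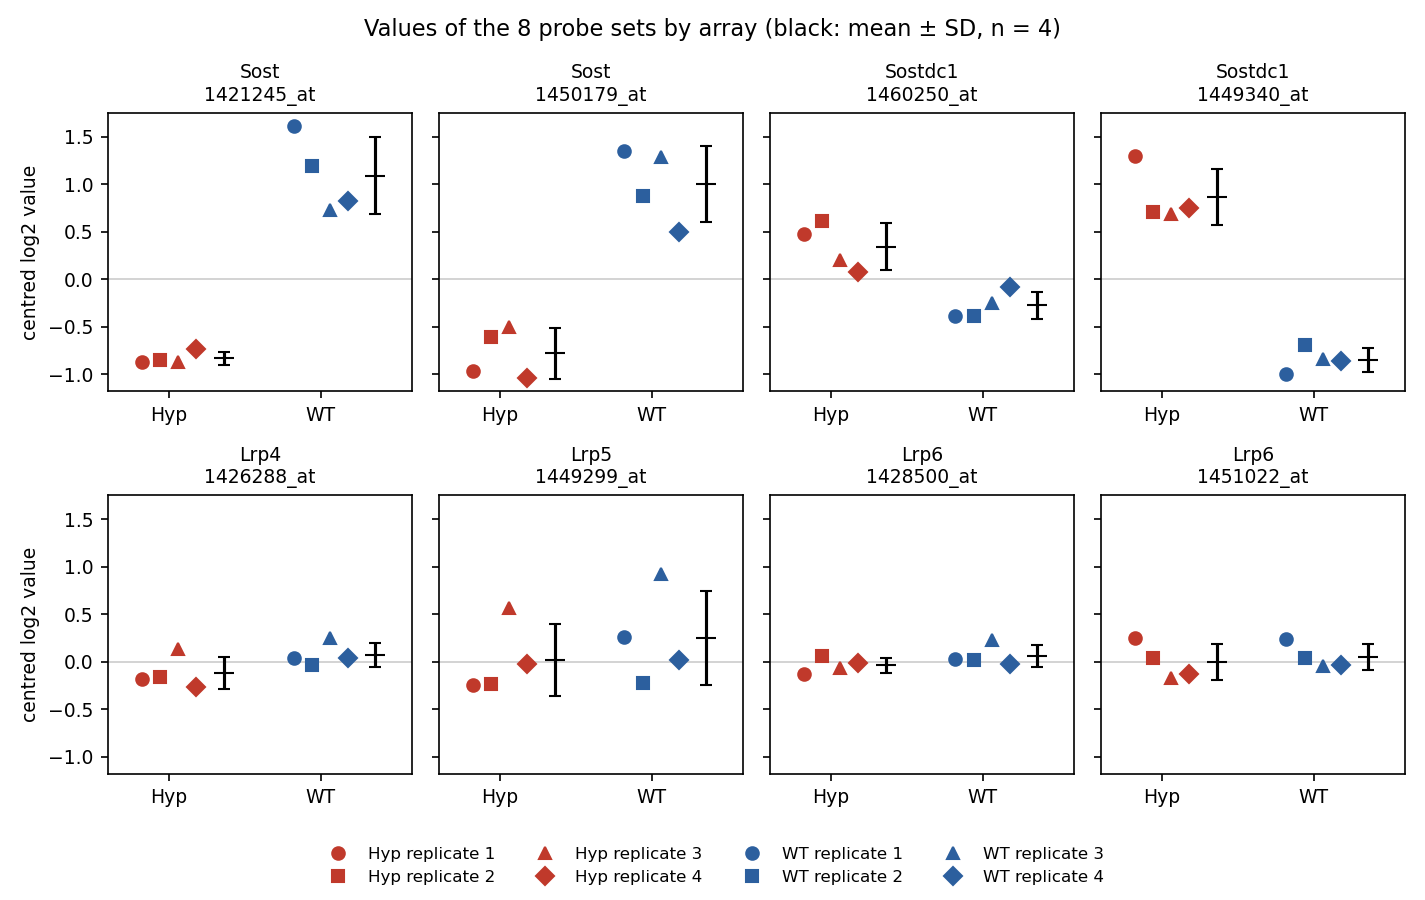
Centred log2 value (vertical axis) of each of the 8 probe sets in the 4 Hyp and the 4 WT arrays, with a marker shape per replicate and the mean ± SD in black. Hyp and WT arrays are apart at both Sost and both Sostdc1 probe sets, and overlap at the 4 receptor probe sets, where replicate 3 of each genotype is the highest for Lrp5.

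On gene means Sost was -0.92, -0.73, -0.69 and -0.89 in Hyp bones, against 1.48, 1.03, 1.01 and 0.66 in WT bones, and Sostdc1 was 0.89, 0.66, 0.45 and 0.42 in Hyp bones, against -0.69, -0.54, -0.55 and -0.47 in WT bones. Sostdc1 minus Sost differed between the genotypes by 3.02 ± 0.26 (SE, n = 4 per group; two-sided exact permutation p = 0.0286, the smallest possible), which adds up the 2 differences and is no further evidence, since each gene alone already separated the genotypes. Among WT bones replicate 1 had the highest Sost and the lowest Sostdc1, and replicate 4 the lowest Sost and the highest Sostdc1. Hyp bones did not repeat this order throughout, since replicate 1 had the lowest Sost and the highest Sostdc1 but replicate 4, low in Sost, had the lowest Sostdc1. After removal of the genotype means the correlation was r = -0.49 over the 8 arrays, given as a description. On that measure the 2 probe sets of Sost had r = 0.29 with each other, and those of Sostdc1 had 0.24.

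The receptors Lrp5 and Lrp6, which pass the Wnt signal, did not pass the test. Lrp5 had values of -0.24, -0.23, 0.56 and -0.02 in Hyp bones, against 0.26, -0.22, 0.93 and 0.02 in WT bones. Replicate 3 was the highest of both genotypes and the groups overlapped over most of their range. The difference was -0.23 ± 0.24 (SE, 95% confidence interval -0.77 to 0.30; limma adjusted p = 0.623), the widest interval of the 8 probe sets. Without WT replicate 3, the array with the muscle markers, the gene fit put Lrp5 at -0.01, and without Hyp replicate 3 at -0.41 (limma adjusted p = 0.989 and 0.298). The part of muscle in the Lrp5 value was not tested, and in Hyp replicate 3, also high for Lrp5, the muscle markers averaged 0.09.

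Lrp6 values were interleaved between the genotypes. At its probe set 1428500_at the values were -0.13, 0.06, -0.07 and -0.02 in Hyp bones, against 0.03, 0.02, 0.23 and -0.02 in WT bones. At 1451022_at they were 0.25, 0.04, -0.17 and -0.12 in Hyp bones, against 0.24, 0.04, -0.05 and -0.04 in WT bones. Neither probe set separated the genotypes. The differences were -0.10 ± 0.07 and -0.05 ± 0.10 (SE; limma adjusted p = 0.458 and 0.818). On the gene mean the 95% confidence interval placed Lrp6 in Hyp bone between 86.4% and 104% of WT. At the single probe sets the intervals were wider, 83.1% to 104% at 1428500_at and 82.4% to 113% at 1451022_at. The 2 probe sets did not run together over the arrays (r = -0.20).

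Lrp4, the third receptor, had values of -0.18, -0.16, 0.13 and -0.26 in Hyp bones, against 0.04, -0.04, 0.25 and 0.04 in WT bones. The 3 lowest values were from Hyp bones, while Hyp replicate 3 lay above 3 of the WT bones. The difference was -0.19 ± 0.10 (SE, 95% confidence interval -0.40 to 0.02; limma adjusted p = 0.277). Without Hyp replicate 3 it was -0.27, and the gene fit then passed the threshold (limma adjusted p = 0.0481) while the probe set fit did not (adjusted p = 0.1). As for Lrp5, replicate 3 was the highest of both genotypes.

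The receptors were not shown to respond differently from one another. Lrp5 minus Lrp6 within an array differed between genotypes by -0.16 ± 0.32, Lrp4 minus Lrp6 by -0.11 ± 0.13 and Lrp4 minus Lrp5 by 0.04 ± 0.22 (SE, n = 4 per group; two-sided exact permutation p = 0.543, 0.429 and 0.886, and 0.814, 0.814 and 0.886 adjusted over the 3 pairs).

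**Figure D2:**
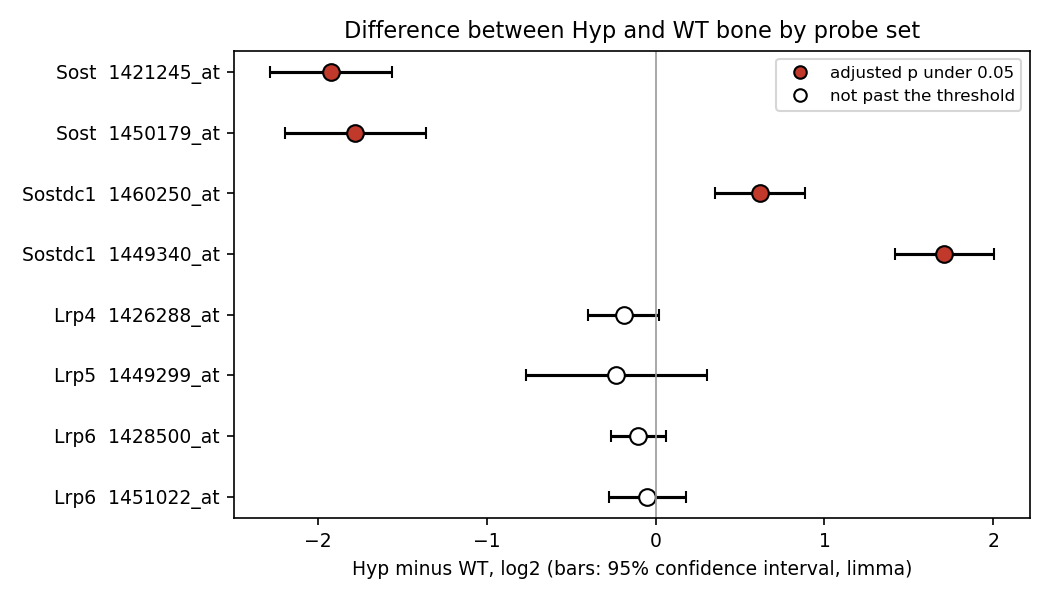
Difference between Hyp and WT bone (log2, horizontal axis) at each of the 8 probe sets with its 95% confidence interval from limma, filled where the adjusted p was under 0.05. The Sost probe sets lie at -1.92 and -1.78, those of Sostdc1 at 0.62 and 1.71, and all receptor intervals include 0.

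**Figure D3:**
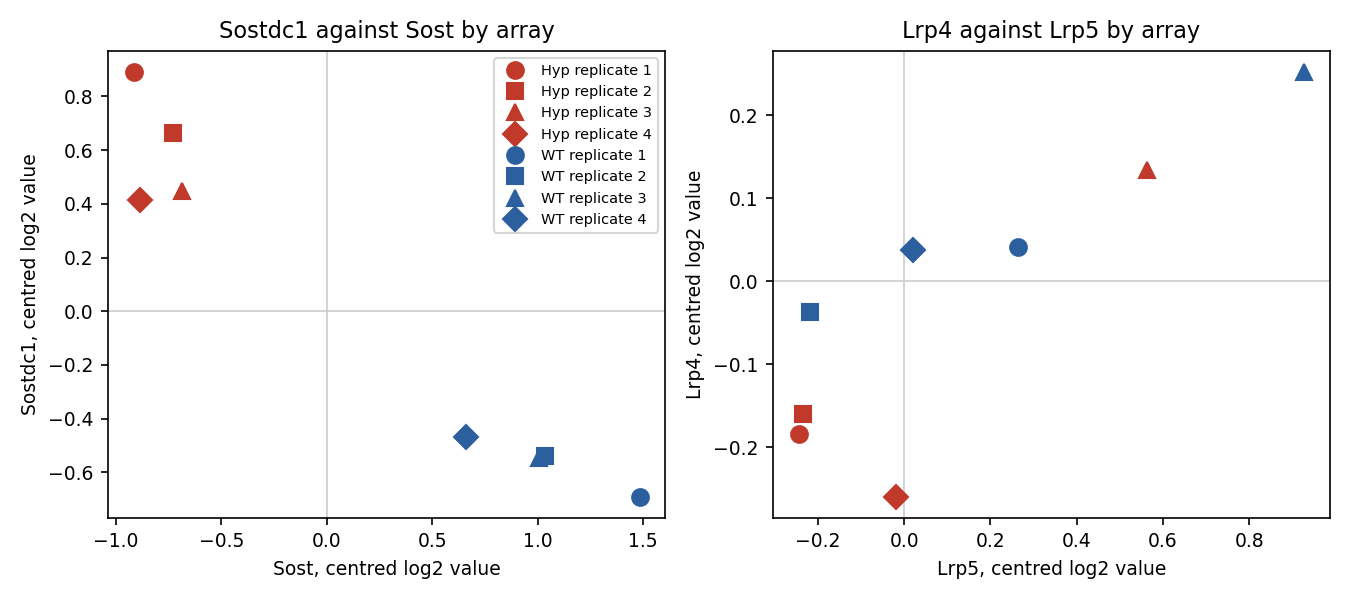
Centred log2 gene means of Sostdc1 against Sost (left) and of Lrp4 against Lrp5 (right), 1 point per array, red for Hyp and blue for WT. The genotypes occupy opposite corners for the secreted antagonists, while the receptor values of the genotypes are mixed and both replicates 3 lie to the right.

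Other osteocyte genes went both ways. Of 26 measured genes of an osteocyte list without Sost, 7 fell and 5 rose, where 6.32% of all genes fell and 6.54% rose, and the median was -0.04, beside 0.02 over all 18193 genes. Those that fell include Phex, Sgms2, a sphingomyelin synthase, and Cdo1, a cysteine dioxygenase, and those that rose include Fgf23, Mepe, a phosphoprotein of bone matrix, and Ank, which moves pyrophosphate out of cells. Sgms2 and Cdo1, at -1.05 and -1.0, and Mepe and Ank, at 0.87 and 0.77, were named after their values were seen (limma adjusted p = 7.95e-06, 7.93e-06, 0.00506 and 0.000837). Without Phex and Fgf23 the remaining 24 averaged 0.02, -0.01, -0.02 and -0.16 in Hyp bones, against 0.17, -0.03, 0.03 and 0.02 in WT bones, and overlapped (difference -0.09 ± 0.06, SE, n = 4 per group; two-sided exact permutation p = 0.2, in a comparison added after the values were seen). That average joins genes that rose and genes that fell. Osteoblast markers were lower at the same time: 13 of 15 measured fell and 1 rose, with list means of -0.44 to -0.17 in Hyp bones, against 0.21 to 0.35 in WT bones. In whole bone, fewer cells of a type and less RNA per cell cannot be told apart, and the part of cell composition in the Sost value was not tested.

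Marker lists of other cells that a bone sample can hold differed in direction. Their counts stand beside 6.54% of all genes that rose and 6.32% that fell. Of 16 epithelial and hair follicle markers 2 rose and none fell in limma (4 higher and 0 lower at an unadjusted p under 0.05), with list means of 0.06 to 0.10 in Hyp bones, against -0.09 to -0.01 in WT bones. Of 17 haematopoietic markers 5 rose and 1 fell, with list means of -0.03 to 0.17 in Hyp bones, against -0.12 to -0.08 in WT bones. The list means of epithelial and haematopoietic markers thus did not overlap between the genotypes, as Sostdc1 did not. Those of nerve and Schwann cell markers, given below, did not overlap either. The same held for the means of the osteoblast list and of most pathway lists described below. These were BMP response genes, genes acting on Sost, LRP5 and LRP6 relay genes, LDL receptor relatives and DAN family members. Among single genes 19.2% did not overlap, a share that is no measure for means over many genes. Of 16 cartilage markers 6 rose and 1 fell, with list means of -0.05 to 0.25 in Hyp bones, against -0.30 to 0.21 in WT bones, which overlap. Of 15 periosteum, tendon and fibroblast markers 6 fell and 1 rose, with a median of -0.29 and list means of -0.21 to 0.00 in Hyp bones, against -0.03 to 0.32 in WT bones. Of 9 nerve and Schwann cell markers 1 rose and 1 fell, with list means of 0.04 to 0.05 in Hyp bones, against -0.04 to 0.03 in WT bones. None of 24 skeletal muscle markers passed in limma (0 higher and 3 lower at an unadjusted p under 0.05). All 24 lay lower in Hyp bone, with a median of -0.52. Their list means of -1.03 to 0.14 in Hyp bones overlapped those of -0.48 to 1.76 in WT bones. The value of 1.76 was that of WT replicate 3 alone, and the other WT bones lay between -0.48 and 0.24. The part of these cells in the Sostdc1 value was not tested.

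Genes known to act on Sost were more often lower than higher in Hyp bone. Of 33 measured genes known to regulate it, 9 fell and 2 rose, where 6.32% of all genes fell and 6.54% rose, and the list median was -0.06. Sp7 (osterix), an osteoblast transcription factor that activates the Sost gene, fell by 0.71 ± 0.08 (limma adjusted p = 0.000199; SE, n = 4 per group). Lifr, a receptor subunit for cytokines that repress Sost, fell by 0.59 ± 0.05 (adjusted p = 5.25e-05), and Ptgs2, which makes the prostaglandin precursor, fell by 1.13 ± 0.10 (adjusted p = 5.81e-05). Bmp7, a bone morphogenetic protein, fell by 1.19 ± 0.10 (adjusted p = 5.81e-05). All 3 probe sets of Lifr and of Bmp7 and both of Ptgs2 passed in that direction. Mef2c, the factor through which the distant bone enhancer of Sost acts, was named after its values were seen: it fell by 0.43 ± 0.08 (adjusted p = 0.00431), while Mef2a and Mef2d, named likewise, lay at -0.09 and 0.06 (adjusted p = 0.594 and 0.569). Pth1r, the parathyroid hormone receptor, also named afterwards, fell by 0.24 ± 0.07 (adjusted p = 0.0351). The 2 that rose, Bmp6 and Ptger2, were also named afterwards and lay at 0.70 ± 0.10 and 0.57 ± 0.10 (adjusted p = 0.00169 and 0.00426). Sp7 and Pth1r also stand in the osteoblast list, which fell as described above. The list joins genes that activate and genes that repress Sost, and their part in the Sost value was not tested.

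Genes that respond to BMP signals, which Sostdc1 binds and blocks, fell where they passed. Of 17 measured, 9 fell and none rose in limma (10 lower and 1 higher at an unadjusted p under 0.05), where 6.32% of all genes fell, with a list median of -0.26. Dlx5 and Dlx3, homeobox factors of osteoblasts, fell by 0.42 ± 0.04 and 0.56 ± 0.07 (limma adjusted p = 0.000182 and 0.000758; SE, n = 4 per group). Smpd3, a sphingomyelinase needed for mineralization, fell by 1.04 ± 0.11 (adjusted p = 0.000208), and Bambi, a decoy receptor, by 0.50 ± 0.09 (adjusted p = 0.00391). Targets of the pathway named after their values were seen did not all fall: Id1, Id3, Smad6 and Smad7 fell by between 0.26 and 0.41 (adjusted p from 0.011 to 0.0166), while Id2, Id4 and Smad9 lay at -0.07, 0.12 and -0.14 (adjusted p = 0.477, 0.527 and 0.11). Msx1, a homeobox factor also named afterwards, lay at 0.16 and missed the threshold (adjusted p = 0.0562), though its genotypes did not overlap. Dlx5 and Smpd3 are in the osteoblast list as well. The part of Sostdc1 in the values of these genes was not tested.

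Genes induced by Wnt signals through beta-catenin went both ways. Of 25 measured, 6 fell and 4 rose, beside shares of 6.32% and 6.54% over all genes, and their median difference was -0.08. Bambi, among those that fell, is also counted with the BMP response genes above. The list shares 6 genes with the relay list below. Wif1, a secreted Wnt inhibitor, fell by 0.95 ± 0.08 (limma adjusted p = 7.81e-05; SE, n = 4 per group), Apcdd1, another inhibitor, by 0.49 ± 0.07 (adjusted p = 0.000913) and Ccn4, a matricellular protein, by 0.71 ± 0.12 (adjusted p = 0.00302). Ccn5, its relative, rose by 1.33 ± 0.11 (adjusted p = 5.78e-05). For Apcdd1, 4 of its 6 probe sets passed. Axin2 and Lef1, both widely read as Wnt responses and named after their values were seen, lay at -0.08 ± 0.05 and -0.21 ± 0.07 (adjusted p = 0.384 and 0.0738).

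Around LRP5 and LRP6, more relay genes fell than rose past the threshold. Of 45 measured Frizzled receptors, Dishevelled proteins, kinases, R-spondin receptors and other relay components, 7 fell and 2 rose in limma. At an unadjusted p under 0.05 the counts were nearly even, with 10 lower and 8 higher. Among all genes 6.32% fell and 6.54% rose, and the list median was -0.03. The list joins genes that pass on and genes that limit the signal. It shares 6 genes with the Wnt targets above and 1 with the genes acting on Sost. Csnk1g3, a membrane-bound casein kinase of the family that phosphorylates LRP6, fell by 0.50 ± 0.05 (limma adjusted p = 0.000169; SE, n = 4 per group). Lgr6 and Lgr4, R-spondin receptors, fell by 0.64 ± 0.12 and 0.34 ± 0.06 (adjusted p = 0.0052 and 0.00517), each with 1 of its 2 probe sets past the threshold. Dvl2, a Dishevelled scaffold, fell by 0.32 ± 0.07 on the gene mean (adjusted p = 0.00949) with neither probe set past it. Dkk1, the other secreted antagonist of LRP6 best known in bone and named after its values were seen, lay at -0.07 ± 0.15 (adjusted p = 0.802). With 1 array left out the count that fell was 4 for Hyp replicate 3 and for WT replicates 1 and 2, and the count that rose was 1 for Hyp replicates 1 and 2 and for WT replicates 1 and 4.

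Of 13 partners of LRP4 at the agrin receptor, among them the kinase Musk and the acetylcholine receptor subunits, none passed the test in limma (2 higher and 1 lower at an unadjusted p under 0.05), where 12.9% of all genes passed. Their differences ran from -0.18 (Chrna1) to 0.28 (Rapsn), both named after their values were seen. Of 14 measured LDL receptor relatives and their adaptors 3 rose and 1 fell, where 6.54% of all genes rose and 6.32% fell, with a median of 0.12. Dab2 and Snx17, adaptors that bind LDL receptor tails, rose by 0.58 ± 0.06 and 0.34 ± 0.05 (limma adjusted p = 0.000179 and 0.00251; SE, n = 4 per group). Vldlr, the VLDL receptor, fell by 0.42 ± 0.08 (adjusted p = 0.00508), with 3 of its 6 probe sets past the threshold. Lrp8 (ApoER2) rose by 0.20 ± 0.04 on the gene mean (adjusted p = 0.0128), but none of its 3 probe sets passed. Without WT replicate 3 the count of this list that rose was 6, and without Hyp replicate 2 the count that fell was 2. Among 4 measured members of the DAN family, cystine-knot BMP antagonists related to sclerostin, Nbl1 fell by 0.48 ± 0.14 (adjusted p = 0.0478). Its probe set did not pass and its genotypes overlapped. It missed the threshold without Hyp replicate 1, 2 or 4 and without WT replicate 1, 3 or 4 (adjusted p from 0.0663 to 0.124).

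**Figure D4:**
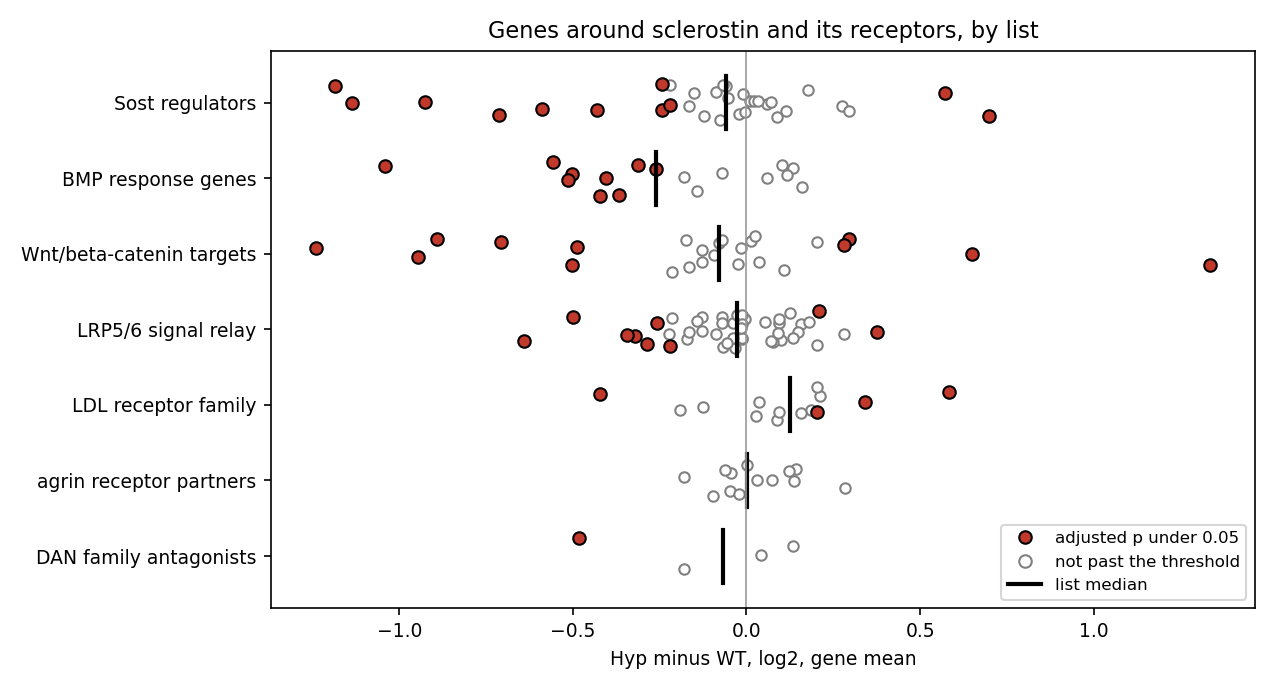
Difference between Hyp and WT bone (log2, horizontal axis) for the measured genes of 7 lists, 1 point per gene mean, filled where the limma adjusted p was under 0.05, with the list median as a bar. The BMP response genes past the threshold all lie below 0, with a median of -0.26, while Wnt targets lie on both sides and the agrin receptor partners around 0.

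The 2 protein-coding genes on each side of every member were taken from the RefSeq gene order, and 19 of these 20 neighbours were measured. Of them 1 rose and 3 fell, where 6.54% of all genes rose and 6.32% fell, and the other 15 lay between -0.05 and 0.26. Meox1, a homeobox gene beside Sost, rose by 0.36 ± 0.08 (limma adjusted p = 0.0119; SE, n = 4 per group). The 3 that fell were named after their values were seen. Beside Lrp5, 1810055G02Rik fell by 0.68 ± 0.06 and Gal (galanin, a neuropeptide) by 1.18 ± 0.13 (adjusted p = 5.81e-05 and 0.00021), while Ppp6r3 and Kmt5b, the other 2 neighbours there and named likewise, lay at 0.02 each (adjusted p = 0.86 and 0.794). Beside Lrp4, 1110051M20Rik fell by 0.25 ± 0.06 (adjusted p = 0.021). No measured neighbour of Sostdc1 or Lrp6 passed the test.

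The genes whose gene means ran most like Sost over the 8 arrays were Cadm1, an adhesion molecule (Pearson r = 0.996), Ptgs2 (0.995), Gng4, a G protein subunit (0.994), Plcd1, a phospholipase C (0.990), and Pcsk5, a proprotein convertase (0.990), out of 18193 genes. All 5 fell, by between 0.24 and 1.13 (limma adjusted p from 5.81e-05 to 0.00521). Sost itself separated the genotypes, so the direction of genes chosen by r over all arrays follows from the choice. For Gng4 1 of 3 probe sets passed, and with the probe sets of shared-probe suffix left out it lay at -0.04 (adjusted p = 0.7). For Pcsk5 3 of 5 passed, with differences from -1.35 to 0.12, and without that suffix it lay at -0.26 (adjusted p = 0.0275). After removal of the genotype means, Cadm1 and Ptgs2 still had r = 0.92 and 0.90 with Sost. Within genotype the 2 probe sets of Sost had r = 0.29 with each other, so they shared little of their deviations. On that measure alone the closest gene was Aox4, an aldehyde oxidase (r = 0.992), which fell by 0.95 ± 0.18 (SE; adjusted p = 0.00566) but lay at -0.70 and missed the threshold after cyclic loess (adjusted p = 0.109), followed by Apba1, Grhl1, 4930533N22Rik and Zbtb40 (r from 0.972 to 0.937), none of which passed the test between genotypes. For Sostdc1 the nearest over the arrays were Eln (elastin, r = 0.989), Sh3tc1 (0.985), 2410004P03Rik (0.984), Ctsd, the lysosomal protease cathepsin D (0.984), and Man1c1, a Golgi mannosidase (0.983). All but 2410004P03Rik (adjusted p = 0.0909) rose, by between 0.30 and 1.43, a direction that likewise follows from the choice. Within genotype the nearest were Abhd16b, Cdhr3, Fam210a, Cd27 and 2610035F20Rik (r from 0.967 to 0.949), and none differed between genotypes past the threshold (adjusted p from 0.337 to 0.84). The 2 probe sets of Sostdc1 had r = 0.24 with each other within genotype. These orders come from 8 arrays and many genes and carry no test.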

How the data were processed

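The deposited log2 values of 45101 probe sets on 8 arrays were used; the authors used RMA to make them, per the submitters' processing notes, whose version is not given in the sources used here. The median of each probe set over the arrays was 0 within 5e-07, so the deposited values had been centred, a step no label records. The log base was taken as 2, as RMA gives it. After 64 controls were left out, 45037 probe sets were tested, of which 34945 had 1 symbol, brought up to date by gene identifier from RefSeq (GRCm38.p6). Genotypes were compared by lmFit and eBayes of limma 3.58.1 in R 4.3.3, without covariates, two-sided, with Benjamini-Hochberg adjustment over all probe sets. The means of a gene's probe sets were fitted likewise over 18193 genes. Positive differences are higher in Hyp. Array number limits the precision: the median SE was 0.08 over probe sets.

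The members and gene lists were chosen with earlier results of these data known. Named were all member probe sets, up to 4 genes with the smallest p among those past the threshold per pathway list, and the 5 genes most correlated with Sost and with Sostdc1 on each measure; others are said to be named afterwards. Replicate numbers were checked as pairs: deviations of same-numbered arrays correlated at 0.145, -0.044, 0.262 and 0.179, so the numbers were not taken as pairs. In data simulated with the spread of the 45037 probe sets, 38 of 67 changes of 0.5, 65 of 67 of 1 and all 66 of 2 were recovered, with 6 false calls. The simulated noise was independent between probe sets, without effects shared within an array, and few probe sets were changed. These rates therefore need not hold for the measured arrays.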

Additional observations from a re-analysis of the deposited data

Results flagged for a closer look

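In 7 of 66 groups of 4 arrays examined, 1 array lay apart from the other 3 by Dixon's criterion, which flags about 1 in 20 groups by chance. Among the members, Hyp replicate 1 had 1.30 for Sostdc1 at 1449340_at, with the next Hyp bone at 0.754. Hyp replicate 4 had -0.734 for Sost at 1421245_at, with the next Hyp bone at -0.852. On gene means, WT replicate 1 was the highest WT bone for Dlx3 at 0.529 (next 0.231), for Lifr at 0.405 (next 0.323) and for Smpd3 at 0.723 (next 0.436). Hyp replicate 2 had 0.345 for Meox1 (next 0.113) and Hyp replicate 3 had -0.195 for Csnk1g3 (next -0.272). None of these arrays crossed to the side of the other genotype.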

How the results depend on the processing

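Sost and Sostdc1 kept their direction and passed the threshold under all 21 alternatives: the replicate block, further normalization, array weights, a robust prior, an SD filter, other probe set choices, stricter thresholds, an exact permutation test and each array left out. With 1 array fewer, Sost lay between -1.98 and -1.71, Sostdc1 between 1.07 and 1.23, Lrp4 between -0.27 and -0.13, Lrp5 between -0.41 and -0.01 and Lrp6 between -0.11 and -0.04. Of the receptors, Lrp4 alone passed under any alternative (without Hyp replicate 3). Lrp5 lay at 0.08 without WT replicate 3 and Hyp replicate 2 together (limma adjusted p = 0.842). With the replicate block, Sost lay at -1.85 ± 0.13 and Sostdc1 at 1.16 ± 0.11 (SE; adjusted p = 0.000225 and 0.000731), Lrp5 at -0.23 ± 0.09 (adjusted p = 0.148), and 1 agrin receptor partner rose; it changed no call of the members. At a threshold of 0.01, 1 Sostdc1 probe set passed as higher in place of 2.

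Over all probe sets, 1452 rose and 1760 fell; between 625 and 2125 rose with 1 array fewer, 2206 with array weights and 965 with the SD filter. Over genes 1190 rose and 1150 fell, against 879 and 1273 after cyclic loess. At a threshold of 0.01, 4 BMP response genes fell, and with a 1.5-fold minimum 1 did. Without WT replicate 3 and Hyp replicate 2, 9 BMP response genes and 9 genes acting on Sost fell. On the probe set of largest SD in place of the gene mean, Lifr lay at -0.96, Ptgs2 at -1.73, Lgr6 at -1.11, Pcsk5 at -1.35 and Gng4 at -0.64. Neither detection nor signal over background can be read from centred values.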
